A study of Mus musculus with 24 samples.

Results

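The comparison set the hippocampus of Npc1-/- mice given vehicle against the hippocampus of Npc1+/+ mice given vehicle, with 4 mice in each group. The libraries were all those whose labels give hippocampus and vehicle, 8 of 24 in the series. The genes were the 12740 of 57126 in the count tables that passed a filter on low counts. The Npc1-/- mice were 63 days old, and replicates 1, 2 and 4 were male and replicate 3 female. The Npc1+/+ mice were 65 days old and all female. Both groups were BALB/cNctr-Npc1m1N/J animals, and both received the vehicle, PBS with PEG400, by intraperitoneal injection on 5 days per week from postnatal day 28. The m1N allele is a germline mutation carried by every cell, so neither the cell type nor the age at which Npc1 was lost is restricted in this model. A further group, Npc1-/- mice given dipyridamole (n = 4), entered the fit only for the estimates of spread and of the effect of sex. Age goes wholly with genotype and its part cannot be told apart from that of genotype.

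NPC1 is a membrane protein of late endosomes and lysosomes that passes cholesterol, taken up with lipoproteins or released from degraded membranes, out of the lysosome. Its loss causes Niemann-Pick disease type C1, in which unesterified cholesterol and sphingolipids build up in lysosomes and neurons degenerate. In the brain, oligodendrocytes wrap axons with myelin, a membrane rich in cholesterol and galactolipids. Microglia, the resident phagocytes, clear debris and can move from a homeostatic state to a disease-associated state marked by the receptor TREM2, its adaptor TYROBP and lysosomal genes. The hippocampus holds the pyramidal neurons of the CA fields and the granule neurons of the dentate gyrus, and it carries less myelin than the white matter tracts beside it.

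Expression was read with the Ion AmpliSeq mouse transcriptome panel, which amplifies a short stretch of each gene, and the values are given as CPM, counts scaled to a common library size, which compare samples but not genes. The 4 Npc1-/- libraries held 3844971 to 8479754 counts, with replicate 2 the shallowest, and the 4 Npc1+/+ libraries 6767704 to 11590081. Markers of hippocampal neurons were present: Neurod6 ran from 456 to 831 CPM in Npc1-/- libraries and from 617 to 816 CPM in Npc1+/+ libraries, against 5.45 to 14.5 CPM in cerebellar libraries. The granule cell marker of the cerebellum, Gabra6, was 0 in all Npc1-/- libraries and at most 0.344 CPM in Npc1+/+ libraries. Other cerebellar markers were low but present, with at most 7.13 CPM for Pcp2, 11.8 for Cbln1 and 4.04 for Cbln3. In cerebellar libraries they were at least 114, 372 and 2210 CPM. Prkcd, a marker of neighbouring regions, ran from 21.3 to 47.1 CPM in Npc1-/- libraries and from 18.1 to 26.3 CPM in Npc1+/+ libraries. The lymphocyte markers Cd3e and Cd79a were at 0 in the Npc1-/- libraries, and the highest value in Npc1+/+ libraries was 0.172 CPM. Choroid plexus RNA varied within both groups, with Ttr from 61.8 to 7240 CPM in Npc1-/- libraries and from 22.7 to 2560 CPM in Npc1+/+ libraries, replicates 1 and 2 of each group being the richest in the choroid plexus score. The slope of expression on the GC content of a gene ran from 0.0235 to 0.177 log2 units per 10 percentage points in Npc1-/- libraries and from -0.0721 to 0.101 in Npc1+/+ libraries. With the choroid plexus score or the GC slope added to the fit as a covariate, 184 and 368 genes passed, against 206 without them.

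Npc1 (ENSMUSG00000024413.15, GRCm39 chr18:12322749-12369457, minus strand) was read first, as a check of the genotype labels. It stood at 22.2, 17.5, 16.9 and 19.5 CPM in the Npc1-/- mice and at 60.5, 67.99, 76.3 and 95.1 CPM in the Npc1+/+ mice. The groups did not overlap, and the log2 fold change was -2.05 ± 0.23 (SE; adjusted p 0.000445 by edgeR's quasi-likelihood test with Benjamini-Hochberg adjustment over all genes tested, the test used throughout). The position of the amplicon within the gene was not known, so the value gives the amount of transcript that was amplified and not the amount of working protein. Beside a gene, a bracketed value with ± is this log2 fold change and its SE, and a mean CPM carries the SD over 4 mice.

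The genotype effect was called for 206 of 12740 genes (1.62%) at an adjusted p under 0.05, 130 higher (1.02%) and 76 lower (0.597%) in the Npc1-/- mice, and 170 of them differed at least 2-fold. The median log2 fold change over all genes was -0.0134. In 203 of the 206 genes the 4 Npc1-/- libraries lay wholly above (128) or wholly below (75) the 4 Npc1+/+ libraries; over all genes tested such separation occurred in 6.26% (above) and 5.54% (below). A log2 fold change is adjusted for sex, which was estimated from the 8 Npc1-/- mice of both treatments, so it can differ from the ratio of the printed means. The count rested on few mice and on the sex term. It was 31 without Npc1-/- replicate 3, the one female of its group. It was 118 without Npc1+/+ replicate 2, 102 without Npc1+/+ replicate 3 and 490 with no sex covariate. All 206 genes kept their direction in each of these fits. Without Npc1-/- replicate 3 its group is all male, so sex is then estimated from the dipyridamole mice alone. With that mouse left out and no sex covariate, a fit chosen after seeing the data, 308 genes passed.

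**Figure D1:**
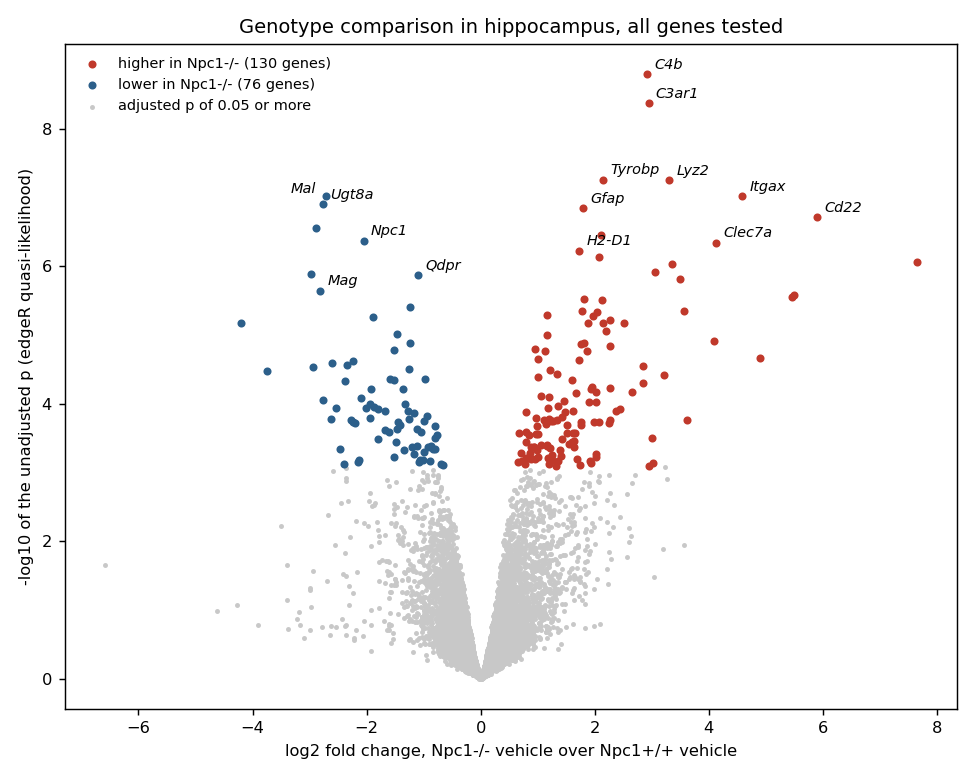
Each point is 1 of the 12740 genes tested in hippocampus, with the log2 fold change of Npc1-/- vehicle over Npc1+/+ vehicle on the x axis and -log10 of the unadjusted p on the y axis. The 130 genes higher in Npc1-/- mice are led by C4b, C3ar1, Tyrobp and Lyz2 and the 76 lower genes by Mal and Ugt8a. The point farthest to the right is Cst7, which had 0 counts in the Npc1+/+ libraries, so its place on the x axis is not a measured fold.

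The genes were read against 40 lists of cell types, organelles and pathways, which held 1037 genes of the files, 857 of them tested; a gene may stand in more than 1 list. Of the 206 genes that passed, 106 were in a list. Of the 76 that fell 43 were in a list, 36 of them in the lists of oligodendrocytes and myelin. Of the 130 that rose 63 were in a list, 57 of them in the lists of microglia and phagocytes, complement, toll-like receptors, chemokines, interferon response, antigen presentation and reactive astrocytes. The share of each list is to be set against 0.597% lower and 1.02% higher over all genes, and a count at an unadjusted p under 0.05 against 12.3% of all genes (1569 of 12740). Counts in the lists moved with the treatment of sex, and the larger moves, with no sex covariate or for the 2 groups fitted alone with sex, are given beside them. In the 2 groups alone with sex, the contrast is set by Npc1-/- replicate 3, the only female of its group, against the Npc1+/+ females. Counts from that fit are therefore no check over all the mice.

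**Figure D2:**
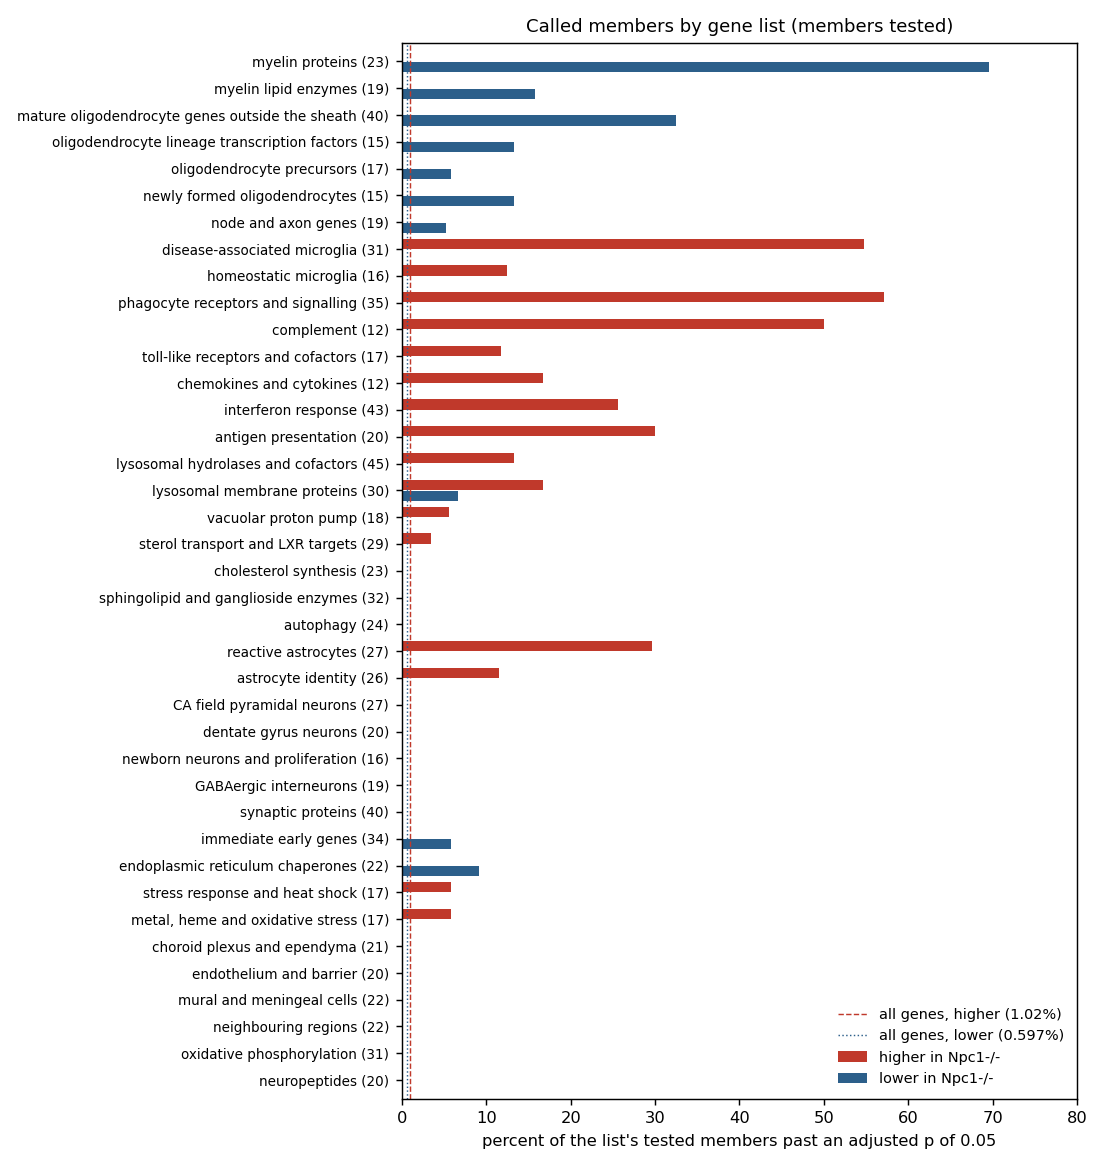
Bars give, for each list with at least 10 tested members, the percent of its tested members past an adjusted p of 0.05, red for higher and blue for lower in Npc1-/- vehicle hippocampus; the dashed and dotted lines give the shares over all 12740 genes, 1.02% and 0.597%. Myelin proteins reach 69.6% lower, phagocyte receptors 57.1% and disease-associated microglia 54.8% higher, and the lists of neurons have no bar.

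The transcripts of myelin fell. Of 28 listed proteins of the myelin sheath 23 were tested, and 16 of these (69.6%) fell and none rose in the Npc1-/- mice, with a median log2 fold change of -1.88; in 19 of the 23 the Npc1-/- libraries lay wholly below the Npc1+/+ libraries. Their summed level was 2359 to 3254 CPM in the Npc1-/- libraries and 6871 to 8071 CPM in the Npc1+/+ libraries. In bulk tissue, fewer oligodendrocytes and less of these transcripts in each oligodendrocyte cannot be told apart. The count of myelin proteins was 6 without Npc1-/- replicate 3, and 17 without that mouse and with no sex covariate.

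Structural proteins of compact myelin were among those that fell. Mbp, the basic protein that holds the cytoplasmic faces of the sheath together, stood at 1364, 883, 909 and 1256 CPM in Npc1-/- mice and at 3864, 3589, 3821 and 3292 CPM in Npc1+/+ mice (-1.95 ± 0.38, edgeR adjusted p 0.0196). The groups were separate, with Npc1-/- replicates 2 and 3 the lowest. Mobp, a further basic protein of the sheath, stood at 84.4, 54.2, 70.01 and 79.8 CPM in Npc1-/- mice and at 305, 293, 343 and 277 CPM in Npc1+/+ mice (-2.23 ± 0.44, edgeR adjusted p 0.0196).

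Membrane and adhesion proteins of the sheath followed. Mal, a small raft-associated protein (ENSMUSG00000027375.15, GRCm39 chr2:127475146-127498615, minus strand), stood at 23.6, 18.6, 24.4 and 28.4 CPM in Npc1-/- mice and at 176, 165, 174 and 119 CPM in Npc1+/+ mice, with no overlap (-2.71 ± 0.27, edgeR adjusted p 0.000203). Mag, the glycoprotein that faces the axon (ENSMUSG00000036634.16, GRCm39 chr7:30598601-30614298, minus strand), stood at 24.8, 30.03, 21.6 and 24.9 CPM in Npc1-/- mice and at 185, 141, 175 and 102 CPM in Npc1+/+ mice (-2.81 ± 0.37, edgeR adjusted p 0.0013). Mog, the glycoprotein of the outer surface of the sheath, stood at 5.97, 4.52, 6.93 and 5.68 CPM in Npc1-/- mice and at 34.01, 40.8, 51.1 and 34.2 CPM in Npc1+/+ mice (-2.98 ± 0.37, edgeR adjusted p 0.00086). In all 3 genes the lowest Npc1+/+ library held several times the CPM of the highest Npc1-/- library. Opalin, a transmembrane protein of the paranodal loops, averaged 15.3 ± 5.12 CPM in Npc1-/- mice and 101 ± 8.64 CPM in Npc1+/+ mice (SD, n = 4 each; -2.53 ± 0.48). Tspan2, a tetraspanin of the sheath, averaged 44.05 ± 6.29 CPM in Npc1-/- mice and 158 ± 23.98 CPM in Npc1+/+ mice (-1.88 ± 0.26). Ermn, a cytoskeletal protein of late myelination, averaged 0.743 ± 0.354 CPM in Npc1-/- mice and 7.44 ± 1.83 CPM in Npc1+/+ mice (-4.20 ± 0.60, edgeR adjusted p 0.00227).

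Junction proteins that couple oligodendrocytes to each other and to astrocytes, or that seal the sheath, fell too. Gjb1, a connexin, stood at 3.22, 1.33, 3.64 and 7.17 CPM in Npc1-/- mice and at 23.96, 19.4, 21.8 and 18.4 CPM in Npc1+/+ mice (-2.76 ± 0.51, edgeR adjusted p 0.0138). The groups did not overlap, and Npc1-/- replicate 2 was the lowest library. Cldn11, the claudin of the myelin tight junction, averaged 14.98 ± 5.33 CPM in Npc1-/- mice and 74.2 ± 3.72 CPM in Npc1+/+ mice (-2.28 ± 0.45, edgeR adjusted p 0.0196).

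**Figure D3:**
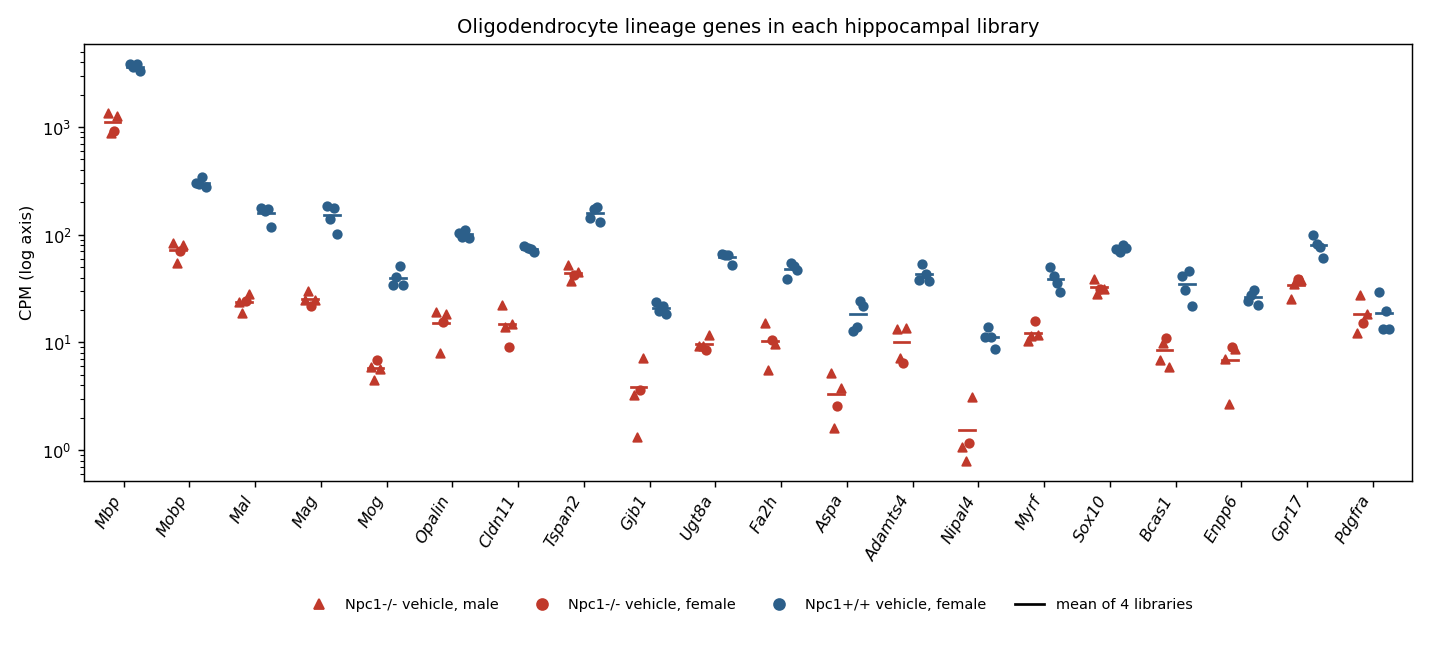
CPM on a log axis for 20 genes of the oligodendrocyte lineage, with the 4 Npc1-/- vehicle libraries (red, triangles for males and a circle for the female) left of the 4 Npc1+/+ vehicle libraries (blue) and a line at each mean. Mal lies between 18.6 and 28.4 CPM in Npc1-/- libraries and between 119 and 176 CPM in Npc1+/+ libraries, and Pdgfra, at the right, is the gene whose groups overlap.

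Among enzymes that make or remodel myelin lipids, 19 of 20 were tested, 3 fell (15.8%) and none rose, with a median log2 fold change of -0.44. The 3 were Ugt8a, Fa2h and Aspa. Ugt8a, which makes galactosylceramide, the main glycolipid of myelin, stood at 9.19, 9.303, 8.46 and 11.8 CPM in Npc1-/- mice and at 65.96, 65.3, 64.4 and 52.2 CPM in Npc1+/+ mice (-2.77 ± 0.28, edgeR adjusted p 0.000225). Fa2h, which hydroxylates the fatty acids of that lipid, averaged 10.2 ± 3.93 CPM in Npc1-/- mice and 47.9 ± 6.86 CPM in Npc1+/+ mice (-2.09 ± 0.38). Aspa, which frees acetate from N-acetylaspartate in oligodendrocytes, averaged 3.29 ± 1.56 CPM in Npc1-/- mice and 18.2 ± 5.75 CPM in Npc1+/+ mice (-2.60 ± 0.42). The groups did not overlap for any of the 3. With no sex covariate 5 of the enzymes fell, and 1 in the 2 groups alone with sex.

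Mature oligodendrocyte genes outside the sheath fell in 13 of 40 tested members (32.5%; 43 in the files) and rose in none, with a median log2 fold change of -1.02. With no sex covariate 22 fell, in the 2 groups alone with sex 2, and without Npc1-/- replicate 3 there were 3. Qdpr, dihydropteridine reductase, had a smaller change with little spread, at 195, 201, 201 and 210.2 CPM in Npc1-/- mice and 414, 457, 449 and 393 CPM in Npc1+/+ mice (-1.10 ± 0.14, edgeR adjusted p 0.00086). Car2, carbonic anhydrase 2, averaged 126 ± 11.5 CPM in Npc1-/- mice and 296 ± 44.9 CPM in Npc1+/+ mice (-1.46 ± 0.22). Adamts4, a secreted metalloprotease, averaged 10.2 ± 3.87 CPM in Npc1-/- mice and 42.8 ± 7.61 CPM in Npc1+/+ mice (-2.23 ± 0.36). Nipal4, a putative magnesium transporter, stood at 1.07, 0.797, 1.18 and 3.11 CPM in Npc1-/- mice and at 11.3, 14, 11.2 and 8.62 CPM in Npc1+/+ mice (-2.94 ± 0.48), with Npc1-/- replicate 4 above the other 3. Trim59 (-2.34 ± 0.38), of the TRIM family of ubiquitin ligases, Josd2 (-1.52 ± 0.24), a deubiquitinase, and Ppp1r14a (-2.37 ± 0.41), a phosphatase inhibitor, also fell.

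Earlier stages of the lineage held few called genes, and in the 2 groups alone with sex none of those below passed. Of 17 listed genes of oligodendrocyte precursors, all tested, Gpr17 fell and none rose, and the median log2 fold change was 0.02. Gpr17, a receptor of committed precursors, stood at 25.6, 34.8, 39.2 and 37.6 CPM in Npc1-/- mice and at 99.5, 82.5, 76.9 and 61.1 CPM in Npc1+/+ mice, without overlap (-1.12 ± 0.23, edgeR adjusted p 0.0226). Of 15 genes of newly formed oligodendrocytes 2 fell (13.3%; median -0.17): Bcas1 averaged 8.43 ± 2.4 CPM in Npc1-/- mice and 35.01 ± 10.9 CPM in Npc1+/+ mice (-1.92 ± 0.34). Enpp6, a choline phosphodiesterase, averaged 6.88 ± 2.96 CPM in Npc1-/- mice and 26.1 ± 3.63 CPM in Npc1+/+ mice (-1.68 ± 0.34). Of 15 tested lineage transcription factors 2 fell (13.3%; median -0.68). Sox10, which acts throughout the lineage, stood at 39.1, 27.9, 31.4 and 31.5 CPM in Npc1-/- mice and at 73.1, 69.8, 79.8 and 74.8 CPM in Npc1+/+ mice (-1.23 ± 0.19, edgeR adjusted p 0.00382). Myrf, which switches on myelin genes in mature cells, averaged 12.3 ± 2.38 CPM in Npc1-/- mice and 39.1 ± 8.77 CPM in Npc1+/+ mice (-1.81 ± 0.34). Of 19 genes of the node of Ranvier and the axon 1 fell (3 with no sex covariate), Cntn2, a contactin of the juxtaparanode (54.97 ± 10.5 CPM in Npc1-/- mice and 114 ± 12.6 CPM in Npc1+/+ mice; -1.04 ± 0.21).

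Because the myelin genes moved together and SOX10 binds a short core motif, the 250 bases before each start site in the RefSeq table (GRCm38.p6) were searched for ACAAAG on both strands. The motif was present for 7 of the 12 myelin proteins that fell and had a promoter in the table (58.3%), for 8 of 18 tested members (44.4%) and for 14.6% of the 9920 tested genes in the table. Of the promoters of Mal, Mog and Mag, that of Mag is shown because it alone held the motif. It lies at chr7:30914864-30915113 on the minus strand. Capitals mark the match on the opposite strand, which starts 126 bases before the start site. Mag has 3 start sites in the table, and the one with the most matches is shown.
Mag: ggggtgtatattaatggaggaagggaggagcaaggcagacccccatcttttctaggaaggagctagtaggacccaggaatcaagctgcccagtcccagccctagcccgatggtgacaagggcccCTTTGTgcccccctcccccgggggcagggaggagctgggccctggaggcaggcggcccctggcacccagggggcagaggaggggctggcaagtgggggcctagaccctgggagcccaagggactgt
The windows of Mal and Mog held no match. A match is a description of the letters and says nothing of binding.

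Transcripts of phagocytes rose. Of 36 listed genes of disease-associated microglia 31 were tested, and 17 (54.8%) rose and none fell, and the median was 1.15 (log2). Of 44 receptors and signalling proteins of phagocytes 35 were tested, 20 (57.1%) rose and none fell, with a median of 1.31, and their summed level was 666.9 to 859.4 CPM in Npc1-/- libraries and 353.4 to 432.1 CPM in Npc1+/+ libraries. Of 16 tested homeostatic genes 2 rose, Trem2 and Mertk (12.5%, median 0.48), against 5 by DESeq2 and none in the 2 groups alone with sex. Trem2 stands in this list, but its receptor is also named above as a mark of the disease-associated state. Without Npc1-/- replicate 3 the count of 17 was 9 and that of 20 was 4, and in the 2 groups alone with sex they were 9 and 7. Without that mouse and with no sex covariate the count of 17 was 18. In bulk tissue, more phagocytes and more of these transcripts in each phagocyte cannot be told apart. The same limit holds for the immune and astrocyte genes given below.

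Both genes of the receptor complex named above as a mark of the disease-associated state rose. Tyrobp, the signalling adaptor of TREM2 (ENSMUSG00000030579.11, GRCm39 chr7:30113185-30117010, plus strand), stood at 64.8, 47.3, 66.6 and 52.1 CPM in Npc1-/- mice and at 12.02, 16.3, 16.1 and 17.7 CPM in Npc1+/+ mice (2.14 ± 0.20, edgeR adjusted p 0.000179). Trem2, a receptor for lipids and apolipoproteins, stood at 25.4, 60.3, 64.2 and 26.8 CPM in Npc1-/- mice and at 16.8, 7.57, 14.4 and 10.1 CPM in Npc1+/+ mice (2.03 ± 0.36, edgeR adjusted p 0.0112). The groups did not overlap for either gene, though Npc1-/- replicates 1 and 4 had much less Trem2 than replicates 2 and 3. Mertk, a receptor for dying cells, averaged 10.01 ± 2.46 CPM in Npc1-/- mice and 5.45 ± 0.94 CPM in Npc1+/+ mice (1.22 ± 0.27, edgeR adjusted p 0.0339). It passed in 7 of 13 alternatives, those with 1 or 2 named libraries left out not being counted. With no sex covariate its log2 fold change was 0.90 (edgeR adjusted p 0.0551).

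Several genes nearly silent in the Npc1+/+ mice were clearly present in the Npc1-/- mice. Itgax, the integrin subunit CD11c (ENSMUSG00000030789.10, GRCm39 chr7:127728719-127749829, plus strand), stood at 11.9, 10.1, 10.2 and 11.4 CPM in Npc1-/- mice and at 1.03, 0.339, 0.515 and 0.731 CPM in Npc1+/+ mice, on 287 and 24 counts in all (4.59 ± 0.46, edgeR adjusted p 0.000203). Clec7a, the glucan receptor dectin-1, stood at 11.03, 6.64, 13.04 and 12.4 CPM in Npc1-/- mice and at 0.773, 0.113, 1.16 and 1.17 CPM in Npc1+/+ mice, on 300 and 27 counts (4.12 ± 0.47, edgeR adjusted p 0.000445). The lowest Npc1-/- library was several times the highest Npc1+/+ library in both. Cst7, a cystatin of disease-associated microglia, had 69 counts in the Npc1-/- libraries and 0 in the Npc1+/+ libraries. Set against a floor of 3 counts over the group it was 30.8-fold higher, and the exact 95% counting interval starts at 24.4-fold. It was singled out after its values were seen. Gpnmb, a glycoprotein of lipid-laden phagocytes, averaged 7.44 ± 2.65 CPM in Npc1-/- mice and 1.14 ± 0.685 CPM in Npc1+/+ mice (3.35 ± 0.40, edgeR adjusted p 0.000696).

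Lyz2, lysozyme M, and Cd68, a lysosomal membrane glycoprotein of phagocytes, had more counts behind them. Lyz2 stood at 80.4, 45.98, 95.8 and 111 CPM in Npc1-/- mice and at 12.6, 11.97, 10.8 and 9.06 CPM in Npc1+/+ mice (3.30 ± 0.31, edgeR adjusted p 0.000179). Cd68 stood at 78.3, 43.6, 82.7 and 78.8 CPM in Npc1-/- mice and at 16.2, 16.3, 15.96 and 23.4 CPM in Npc1+/+ mice (2.11 ± 0.23, edgeR adjusted p 0.000407). Npc1-/- replicate 2, the shallowest library, was the lowest of its group for both, and still above every Npc1+/+ library. Hvcn1, a voltage-gated proton channel of phagocytes, averaged 16.8 ± 6.93 CPM in Npc1-/- mice and 3.81 ± 1.66 CPM in Npc1+/+ mice (2.37 ± 0.45). Cyba, the small subunit of the phagocyte NADPH oxidase, averaged 29.99 ± 10.4 CPM in Npc1-/- mice and 10.7 ± 2.27 CPM in Npc1+/+ mice (1.78 ± 0.25). Of the 3 markers used to check for microglia, Cx3cr1 ran from 41.7 to 60.9 CPM in Npc1-/- libraries and from 35.2 to 40.8 CPM in Npc1+/+ libraries, and Csf1r overlapped between the groups, with 38.5 to 64.9 CPM in Npc1-/- libraries and 32.0 to 46.6 CPM in Npc1+/+ libraries. P2ry12, a purinergic receptor of resting microglia, ran from 5.32 to 14.9 CPM in Npc1-/- libraries and from 1.36 to 3.80 CPM in Npc1+/+ libraries. Its groups were separate, with a log2 fold change of 1.95 ± 0.51 that missed the threshold (edgeR adjusted p 0.0882).

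**Figure D4:**
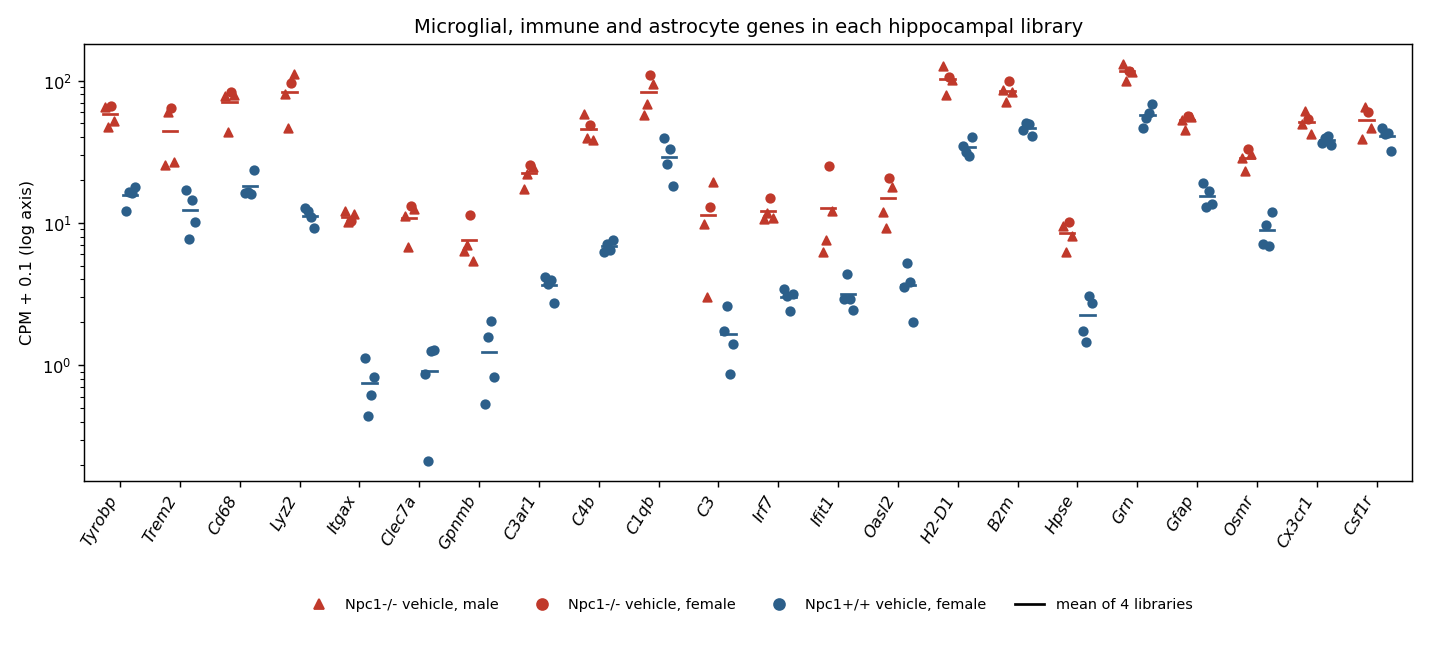
CPM + 0.1 on a log axis for 22 genes of microglia, complement, interferon response, antigen presentation, lysosomes and astrocytes, with the 4 Npc1-/- vehicle libraries (red) left of the 4 Npc1+/+ vehicle libraries (blue) and a line at each mean; the female Npc1-/- mouse is the red circle. Itgax lies between 10.1 and 11.9 CPM in Npc1-/- libraries and between 0.339 and 1.03 CPM in Npc1+/+ libraries (before 0.1 is added), while Csf1r overlaps.

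Complement genes rose in 6 of 12 tested members (50%; 23 in the files) and fell in none, with a median log2 fold change of 1.39. C4b, a component of the classical cascade (ENSMUSG00000073418.5, GRCm39 chr17:34947354-34962856, minus strand), had the smallest p of the comparison. It stood at 57.8, 39.1, 48.3 and 38.3 CPM in Npc1-/- mice and at 6.18, 7.002, 6.31 and 7.45 CPM in Npc1+/+ mice (2.91 ± 0.21, edgeR adjusted p 2.04e-05). Its near-identical neighbour C4a was not tested, and reads of the 2 genes may have been divided between them. C3ar1, the receptor for the C3a fragment, stood at 17.3, 21.8, 25.2 and 24.5 CPM in Npc1-/- mice and at 4.04, 3.61, 3.86 and 2.63 CPM in Npc1+/+ mice (2.94 ± 0.23, edgeR adjusted p 2.68e-05). C3, on which the pathways of complement converge, stood at 9.65, 2.92, 12.9 and 19.4 CPM in Npc1-/- mice and at 1.63, 2.48, 0.772 and 1.31 CPM in Npc1+/+ mice (2.95 ± 0.69, edgeR adjusted p 0.0494). C3 had the widest spread of these, with Npc1-/- replicate 2 just above the highest Npc1+/+ library. It passed in 4 of 13 alternatives (log2 fold change 2.14 to 3.09, highest edgeR adjusted p 0.493). Alternatives with 1 or 2 named libraries left out are not counted in the 13. The C1q subunit genes C1qb (1.76 ± 0.27) and C1qc (1.82 ± 0.28) and the integrin gene Itgb2 (1.46 ± 0.27) also rose. In the 2 groups alone with sex 2 members rose, and likewise 2 without Npc1-/- replicate 3.

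Interferon response genes rose in 11 of 43 tested members (25.6%; 62 in the files) and fell in none, with a median log2 fold change of 0.96. In the 2 groups alone with sex 4 rose, and without Npc1-/- replicate 3 there were 2. Irf7, a transcription factor that amplifies the type I interferon response, stood at 10.6, 11.7, 14.8 and 10.7 CPM in Npc1-/- mice and at 3.35, 2.94, 2.32 and 3.07 CPM in Npc1+/+ mice (2.12 ± 0.28, edgeR adjusted p 0.00153). Ifit1, which binds viral RNA, stood at 6.13, 7.44, 25.1 and 12.1 CPM in Npc1-/- mice and at 2.83, 4.29, 2.83 and 2.34 CPM in Npc1+/+ mice (2.51 ± 0.36, edgeR adjusted p 0.00227). Oasl2, of the oligoadenylate synthetase family, stood at 11.8, 9.04, 20.7 and 17.7 CPM in Npc1-/- mice and at 3.44, 5.08, 3.73 and 1.899 CPM in Npc1+/+ mice (2.27 ± 0.35, edgeR adjusted p 0.00398). The groups were separate in all 3, and the female, Npc1-/- replicate 3, was the highest library in each. Trim30a (2.15 ± 0.31), a TRIM protein, rose as well, and Ifi44l had 106 counts in the Npc1-/- libraries and 8 in the Npc1+/+ libraries (4.09 ± 0.62). The chemokine gene Cxcl10, which draws in lymphocytes, stood at 8.12, 5.32, 4.93 and 9.07 CPM in Npc1-/- mice and at 0, 0.452, 0.258 and 0 CPM in Npc1+/+ mice, on 182 and 6 counts (5.46 ± 0.72, edgeR adjusted p 0.00146). Of 12 tested chemokines and cytokines, Cxcl16 (1.86 ± 0.29) was the other that rose; 4 did with no sex covariate and 1 in the 2 groups alone with sex.

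The interferon-stimulated response element, taken as a pair of GAAA units with 2 bases between them on either strand, was searched for in the same promoter windows. It was present for 4 of 10 called members with a promoter in the table (40%), for 13 of 33 tested members (39.4%) and for 2.99% of the 9920 tested genes, and interferon genes are in part known by this element. The promoters of Ifit1 (chr19:34640639-34640888, plus strand), Cxcl10 (chr5:92348890-92349139, minus strand) and Trim30a (chr7:104465194-104465443, minus strand; the start site of 2 with the most matches) are shown because these genes rose and carry it; sequences are from RefSeq on GRCm38.p6 and capitals mark the matches.
Ifit1: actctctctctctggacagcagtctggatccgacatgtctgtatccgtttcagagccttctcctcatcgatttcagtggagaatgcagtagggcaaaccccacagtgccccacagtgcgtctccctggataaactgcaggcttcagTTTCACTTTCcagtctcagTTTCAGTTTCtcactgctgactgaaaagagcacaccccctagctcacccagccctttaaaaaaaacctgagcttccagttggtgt
Cxcl10: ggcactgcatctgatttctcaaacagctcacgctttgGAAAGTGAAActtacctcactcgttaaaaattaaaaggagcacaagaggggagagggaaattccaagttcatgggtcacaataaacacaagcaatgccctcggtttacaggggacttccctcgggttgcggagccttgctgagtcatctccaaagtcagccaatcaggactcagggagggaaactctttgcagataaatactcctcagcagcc
Trim30a: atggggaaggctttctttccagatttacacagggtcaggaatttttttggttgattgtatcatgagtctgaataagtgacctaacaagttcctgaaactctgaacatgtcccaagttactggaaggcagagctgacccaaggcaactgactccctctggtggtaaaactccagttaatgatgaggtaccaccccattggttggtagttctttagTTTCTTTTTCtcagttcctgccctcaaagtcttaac
The matches start 104 and 85 bases before the start site in Ifit1, 213 in Cxcl10 and 36 in Trim30a. The window of Irf7 held none of these letters, which says nothing of other elements or of the factors that bind them.

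Antigen presentation genes rose in 6 of 20 tested members (30%) and fell in none, with a median log2 fold change of 0.95. In the 2 groups alone with sex 2 rose, and without Npc1-/- replicate 3 only 1. H2-D1, a class I heavy chain, stood at 126, 79.5, 106 and 100 CPM in Npc1-/- mice and at 34.7, 31.5, 29.6 and 40.03 CPM in Npc1+/+ mice (1.73 ± 0.20, edgeR adjusted p 0.000544). B2m, the light chain of class I molecules, stood at 86.1, 70.7, 99.4 and 82.6 CPM in Npc1-/- mice and at 44.6, 50.4, 49.3 and 40.9 CPM in Npc1+/+ mice (1.01 ± 0.16, edgeR adjusted p 0.00546). The libraries of the 2 groups were apart for both genes. H2-Q4 (2.19 ± 0.32), H2-K1 (1.35 ± 0.25) and the immunoproteasome subunit gene Psmb8 (1.44 ± 0.30) also rose. The class I heavy chains are near-identical in sequence, so their reads can be divided between them. Of 17 tested toll-like receptors and cofactors 2 rose (11.8%; median 1.07), Cd180 (1.76 ± 0.35) and Tlr9 (2.07 ± 0.41), against 4 by DESeq2 and with no sex covariate and none in the 2 groups alone with sex. Of 28 listed genes of other leukocytes and blood 2 passed the filter, Alas2 and Lyve1, and neither passed by edgeR or DESeq2 or had an unadjusted p under 0.05.

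Lysosomal genes rose in part. Of 45 tested hydrolases and their cofactors 6 rose (13.3%) and none fell, with a median log2 fold change of 0.34, and their summed level was 6360 to 7184 CPM in Npc1-/- libraries and 4752 to 5152 CPM in Npc1+/+ libraries. The count of 6 was 14 by DESeq2, 12 with no sex covariate, and 1 both in the 2 groups alone with sex and without Npc1-/- replicate 3. Grn, progranulin, stood at 131, 99.9, 116 and 116 CPM in Npc1-/- mice and at 46.2, 54.4, 59.1 and 67.8 CPM in Npc1+/+ mice (1.01 ± 0.17, edgeR adjusted p 0.00819). Hpse, heparanase, stood at 9.35, 6.11, 10.1 and 7.99 CPM in Npc1-/- mice and at 1.63, 1.35, 2.96 and 2.63 CPM in Npc1+/+ mice (2.27 ± 0.32, edgeR adjusted p 0.00225). The proteases Ctss (1.20 ± 0.22) and Ctsz (1.15 ± 0.23) and the mannosidase Man2b1 (0.99 ± 0.20) rose by smaller amounts, and the sixth was Lyz2, given above. All 6 had separate groups, and Lyz2, Ctss and Hpse also stand in lists of immune cells.

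Of 30 tested lysosomal membrane proteins 5 rose (16.7%) and 2 fell (6.67%), with a median of 0.26; 3 rose and 1 fell in the 2 groups alone with sex. The 2 that fell were Npc1 and Slc15a4, a peptide and histidine transporter that is named because it was one of so few. Laptm5, a membrane protein of lysosomes in blood-derived cells, stood at 172, 187, 227 and 242 CPM in Npc1-/- mice and at 107, 106, 89.9 and 86.9 CPM in Npc1+/+ mice (1.13 ± 0.18, edgeR adjusted p 0.00443). Slc11a1, a metal transporter of phagosomes, averaged 12.7 ± 2.82 CPM in Npc1-/- mice and 4.21 ± 0.706 CPM in Npc1+/+ mice (1.82 ± 0.24), and Slc15a3, a peptide transporter, averaged 7.799 ± 2.25 CPM in Npc1-/- mice and 2.52 ± 0.935 CPM in Npc1+/+ mice (1.76 ± 0.35). Of 18 tested subunits of the vacuolar proton pump 1 rose, Atp6v0d2, a macrophage isoform with 74 counts in Npc1-/- libraries and 2 in Npc1+/+ libraries, a ratio of 49.6 with an exact 95% counting interval of 13.3 to 417. The median of the pump genes was -0.11. No autophagy gene of 24 passed by edgeR or DESeq2, with 3 at an unadjusted p under 0.05, a share like that of all genes (12.3%), and a median of 0.07. Tfeb, the regulator of lysosomal genes, averaged 10.4 ± 1.04 CPM in Npc1-/- mice and 16.6 ± 2.41 CPM in Npc1+/+ mice (-0.63 ± 0.22, edgeR adjusted p 0.227), and passed with no sex covariate (-0.66, edgeR adjusted p 0.0377).

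Genes of sterol handling held few calls. Of 29 tested genes of sterol transport and LXR targets 1 rose by edgeR, none in the 2 groups alone with sex, 2 with no sex covariate and 3 by DESeq2; 7 had an unadjusted p under 0.05 and the median log2 fold change was 0.00303. The 1 was Apoe, the main apolipoprotein of the brain. It stood at 944, 861, 1052 and 1021 CPM in Npc1-/- mice and at 576, 559, 454 and 503 CPM in Npc1+/+ mice, without overlap (0.95 ± 0.15, edgeR adjusted p 0.00436). No cholesterol synthesis gene of 23 passed by edgeR with the sex covariate or by DESeq2, 1 had an unadjusted p under 0.05, and their median was -0.16. Msmo1, a sterol oxidase of the late pathway, had the smallest p of these, at 20.2, 18.1, 21.6 and 26.8 CPM in Npc1-/- mice and 31.4, 32.9, 43.1 and 40.6 CPM in Npc1+/+ mice (-0.67 ± 0.22, edgeR adjusted p 0.187), and passed with no sex covariate (-0.76, edgeR adjusted p 0.0144). Of 32 tested sphingolipid and ganglioside enzymes none passed by edgeR or DESeq2 with the sex covariate, 1 fell with none, 3 had an unadjusted p under 0.05, and the median was -0.13.

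Reactive astrocyte genes rose in 8 of 27 tested members (29.6%), 5 in the 2 groups alone with sex, and fell in none, with a median log2 fold change of 0.66. Gfap, the intermediate filament of astrocytes, stood at 52.7, 44.6, 56.5 and 55.5 CPM in Npc1-/- mice and at 18.9, 12.8, 16.6 and 13.4 CPM in Npc1+/+ mice (1.80 ± 0.18, edgeR adjusted p 0.000225). Osmr, the receptor for oncostatin M, stood at 28.5, 22.9, 32.9 and 30.3 CPM in Npc1-/- mice and at 7.04, 9.49, 6.82 and 11.8 CPM in Npc1+/+ mice (2.08 ± 0.25, edgeR adjusted p 0.000625). The lowest Npc1-/- library was above the highest Npc1+/+ library by a wide margin in both. Aspg, an asparaginase, averaged 5.597 ± 1.31 CPM in Npc1-/- mice and 0.731 ± 0.161 CPM in Npc1+/+ mice (3.05 ± 0.38), and Ggta1, a galactosyltransferase, averaged 8.04 ± 2.597 CPM in Npc1-/- mice and 2.53 ± 0.593 CPM in Npc1+/+ mice (1.90 ± 0.35). The markers used to check for astrocytes were Aqp4, Slc1a2 and Aldoc, and they did not move alike. Aqp4 overlapped and leaned lower, with 38.1 to 93.6 CPM in Npc1-/- libraries and 64.5 to 105 CPM in Npc1+/+ libraries. Slc1a2 ran from 3700 to 4350 CPM in Npc1-/- libraries and from 2260 to 3350 CPM in Npc1+/+ libraries. Of 26 tested genes of astrocyte identity 3 rose (11.5%, median 0.26): Apoe, the metallothionein Mt1 (0.79 ± 0.17) and the aldolase Aldoc (0.80 ± 0.18). None of the 3 passed in the 2 groups alone with sex, and 5 of the list did with no sex covariate.

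The neuronal lists were without calls in the fit with the sex covariate. None of 27 genes of CA pyramidal neurons (median log2 fold change -0.12), 20 of dentate gyrus neurons (-0.19), 19 of GABAergic interneurons (-0.09), 40 synaptic proteins (-0.13), 16 of newborn neurons and proliferation (-0.10) or 20 neuropeptides (0.01) passed by edgeR. At an unadjusted p under 0.05 these lists held 0, 1, 2, 4, 2 and 1 genes in this order, against 12.3% of all genes. By DESeq2 3 genes passed: Sox11 and Dcx of newborn neurons and the synaptic scaffold gene Dlg2. With no sex covariate 1 synaptic gene passed as higher and 2 as lower, and 1 gene of newborn neurons as lower. The summed level of the CA list was 6012 to 6519 CPM in Npc1-/- libraries and 5962 to 6248 CPM in Npc1+/+ libraries. Calb1, a calcium-binding protein of granule and CA1 neurons, had the smallest p of the dentate list, at 98.04, 98.3, 83.9 and 88.7 CPM in Npc1-/- mice and 98.5, 112, 124 and 114 CPM in Npc1+/+ mice (-0.40 ± 0.16, edgeR adjusted p 0.319). Homer1, a scaffold of the postsynaptic density, stood at 44.3, 40.4, 38.4 and 51.97 CPM in Npc1-/- mice and at 53.9, 80.6, 91.9 and 117 CPM in Npc1+/+ mice (-0.89 ± 0.28, edgeR adjusted p 0.179), with separate groups. Dcx, a microtubule protein of newborn neurons, stood at 37.1, 38.3, 41.9 and 40.1 CPM in Npc1-/- mice and at 26.5, 22.9, 26.8 and 28.8 CPM in Npc1+/+ mice (0.88 ± 0.26, edgeR adjusted p 0.132). Missing the threshold does not show that these genes were alike in the 2 groups.

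Genes that respond to activity and to protein folding fell in numbers that depended on the fit. Of 34 tested immediate early genes 2 fell (5.88%; median -0.28), and none in the 2 groups alone with sex. Arc, which regulates glutamate receptors at active synapses, stood at 30.6, 51.8, 38.3 and 64.6 CPM in Npc1-/- mice and at 128, 70.4, 142 and 93.8 CPM in Npc1+/+ mice (-1.48 ± 0.32, edgeR adjusted p 0.0303). Dusp6, a phosphatase of the MAP kinase ERK, averaged 20.7 ± 3.02 CPM in Npc1-/- mice and 39.4 ± 10.3 CPM in Npc1+/+ mice (-1.07 ± 0.24). Of 22 chaperones of the endoplasmic reticulum 2 fell (9.09%; median -0.37), 5 by DESeq2, 7 with no sex covariate and none in the 2 groups alone with sex; in 9 of the 22 the Npc1-/- libraries lay wholly below. Hspa5, the chaperone BiP, stood at 189, 166, 196 and 224 CPM in Npc1-/- mice and at 297, 324, 338 and 338 CPM in Npc1+/+ mice (-0.77 ± 0.16, edgeR adjusted p 0.0251). Sdf2l1, its partner, stood at 20.8, 21.3, 22.3 and 23.7 CPM in Npc1-/- mice and at 49.8, 52.7, 43.6 and 51.4 CPM in Npc1+/+ mice (-1.24 ± 0.17, edgeR adjusted p 0.00184). These 4 genes had no overlap between groups. Of 17 stress response genes 1 rose, the transcription factor Atf3 (1.69 ± 0.39, edgeR adjusted p 0.0443). It passed in 6 of 12 alternatives that measured it, those with 1 or 2 named libraries left out not being counted. With no sex covariate its log2 fold change was 1.25 (edgeR adjusted p 0.052).

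The lists of endothelium (20 tested), mural and meningeal cells (22), neighbouring regions (22), oxidative phosphorylation (31) and choroid plexus (21) held no gene called by edgeR or DESeq2; at an unadjusted p under 0.05 they held 2, 3, 1, 0 and 0. The median log2 fold change of the choroid plexus list was -2.25, although its summed level overlapped widely, with 283.3 to 8664 CPM in Npc1-/- libraries and 229.2 to 4706 CPM in Npc1+/+ libraries. Sostdc1, one of its members, stood at 144, 128, 3.17 and 20.4 CPM in Npc1-/- mice and at 239.6, 204, 2.704 and 4.97 CPM in Npc1+/+ mice (-4.27 ± 2.19). With no sex covariate its log2 fold change was -0.635, and that of Calml4, another member, was -0.582 against -2.245 with sex. Sex was estimated from the Npc1-/- mice of both treatments. Their choroid plexus score, a mean log2 CPM, ran from 2.65 to 7.58 in males and from 2.79 to 4.19 in females. The part of the sex term in this median was not tested further.

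Of the 206 called genes, 100 were in no list. Among those that rose, Cd22, a lectin of B cells and microglia that binds sialic acid, had 97 counts in Npc1-/- libraries and 2 in Npc1+/+ libraries, a ratio of 65.0 with an exact 95% counting interval of 17.5 to 544. Arl11, a small GTPase, stood at 7.35, 9.04, 8.69 and 8.93 CPM in Npc1-/- mice and at 0.258, 1.35, 0.386 and 1.17 CPM in Npc1+/+ mice (3.49 ± 0.44, edgeR adjusted p 0.000944). Cirbp, an RNA-binding protein induced by cold, stood at 168, 188, 181 and 166 CPM in Npc1-/- mice and at 94.8, 72.4, 83.8 and 69.7 CPM in Npc1+/+ mice, with little spread in either group (1.16 ± 0.17, edgeR adjusted p 0.00307). Etnppl, an enzyme of ethanolamine phosphate breakdown found in astrocytes, averaged 19.3 ± 5.16 CPM in Npc1-/- mice and 5.35 ± 1.32 CPM in Npc1+/+ mice (1.97 ± 0.28). Hif3a, of the hypoxia-inducible factor family, averaged 13.3 ± 4.29 CPM in Npc1-/- mice and 2.397 ± 1.06 CPM in Npc1+/+ mice (2.26 ± 0.40). Hpgds, a prostaglandin D synthase, averaged 17.5 ± 5.43 CPM in Npc1-/- mice and 5.47 ± 2.19 CPM in Npc1+/+ mice (1.96 ± 0.34). Tnfaip2 (3.56 ± 0.49), the immune receptor gene Lag3 (1.72 ± 0.28), the zinc finger gene Zkscan2 (1.21 ± 0.20), the potassium channel gene Kcnk6 (1.61 ± 0.28), the xanthine dehydrogenase gene Xdh (2.65 ± 0.47) and Lfng (1.06 ± 0.19), which modifies Notch, also rose.

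Among those that fell, Unc5b, a netrin receptor, stood at 15.2, 16.2, 12.7 and 13.3 CPM in Npc1-/- mice and at 36.5, 38.2, 38.9 and 39.3 CPM in Npc1+/+ mice (-1.58 ± 0.27, edgeR adjusted p 0.00836). Prima1, which anchors acetylcholinesterase in membranes, stood at 4.14, 3.46, 2.35 and 5.55 CPM in Npc1-/- mice and at 14.7, 15.02, 15.4 and 15.8 CPM in Npc1+/+ mice (-2.01 ± 0.38, edgeR adjusted p 0.016). Both had separate groups. Uhrf2, a ubiquitin ligase that binds modified DNA, averaged 34.5 ± 4.04 CPM in Npc1-/- mice and 61.1 ± 3.94 CPM in Npc1+/+ mice (-0.97 ± 0.17). Banp, a nuclear DNA-binding protein, averaged 42.5 ± 4.29 CPM in Npc1-/- mice and 90.5 ± 9.02 CPM in Npc1+/+ mice (-1.26 ± 0.21). The lectin gene Lman2l (-1.36 ± 0.24), the glycosyltransferase gene Galnt6 (-1.87 ± 0.35), Ttyh2 (-1.17 ± 0.23), the corepressor gene Cbfa2t3 (-0.94 ± 0.18), Prr14l (-1.25 ± 0.25), the calcium channel subunit gene Cacna2d4 (-2.62 ± 0.51), the kinesin gene Kif13b (-0.99 ± 0.20) and the lipid transporter gene Abca8a (-2.21 ± 0.44) also fell.

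The same mice gave cerebellum, and the hippocampal minus cerebellar effect of genotype was tested with the animal as a block. The cerebellar library of Npc1-/- vehicle replicate 2 was the shallowest of the series, at 1833609 counts. The rest of its group held 6752995 to 8067175. It passed for 155 of 13436 genes (1.15%), with the lower log2 fold change in hippocampus for 73 (0.543%) and the higher for 82 (0.61%). Of the 23 tested myelin proteins 15 had the lower log2 fold change in hippocampus and none the higher; in the cerebellar fit 1 of the 23 fell, 1 rose and the median was 0.02. Mbp differed by -2.32 ± 0.35 (hippocampus minus cerebellum, log2; edgeR adjusted p 0.00278), with a log2 fold change of 0.38 ± 0.18 in cerebellum. Mal differed by -2.15 ± 0.29 (edgeR adjusted p 0.00101; -0.54 ± 0.19 in cerebellum) and Mag by -2.54 ± 0.36 (edgeR adjusted p 0.00168; -0.25 ± 0.22 in cerebellum). Tspan2 (-2.03 ± 0.31), Qdpr (-1.32 ± 0.20) and Unc5b (-1.91 ± 0.27) also had the lower value in hippocampus. The count of 155 was 27 without both libraries of Npc1-/- replicate 3 and 90 without those of Npc1+/+ replicate 3.

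Of 35 tested phagocyte receptors and signalling genes 7 had the lower log2 fold change in hippocampus and none the higher. Of 31 disease-associated genes 7 had the lower and 1, H2-D1, the higher log2 fold change in hippocampus. Gpnmb differed by -4.06 ± 0.45 (edgeR adjusted p 0.000207), with a log2 fold change of 7.54 ± 0.38 in cerebellum. Hpse differed by -3.15 ± 0.46 (5.50 ± 0.29 in cerebellum), Laptm5 by -1.50 ± 0.21 (2.64 ± 0.18 in cerebellum) and the astrocyte gene Gfap by -1.95 ± 0.26 (3.78 ± 0.18 in cerebellum). H2-D1 differed the other way, by 1.61 ± 0.26 (edgeR adjusted p 0.00351; 0.14 ± 0.20 in cerebellum). None of 43 interferon response genes differed between the tissues at the threshold by edgeR, and 1 did at an unadjusted p under 0.05; Ifit1 differed by 0.57 ± 0.41 (edgeR adjusted p 0.799) and Irf7 by 0.33 ± 0.36 (edgeR adjusted p 0.913).

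**Figure D5:**
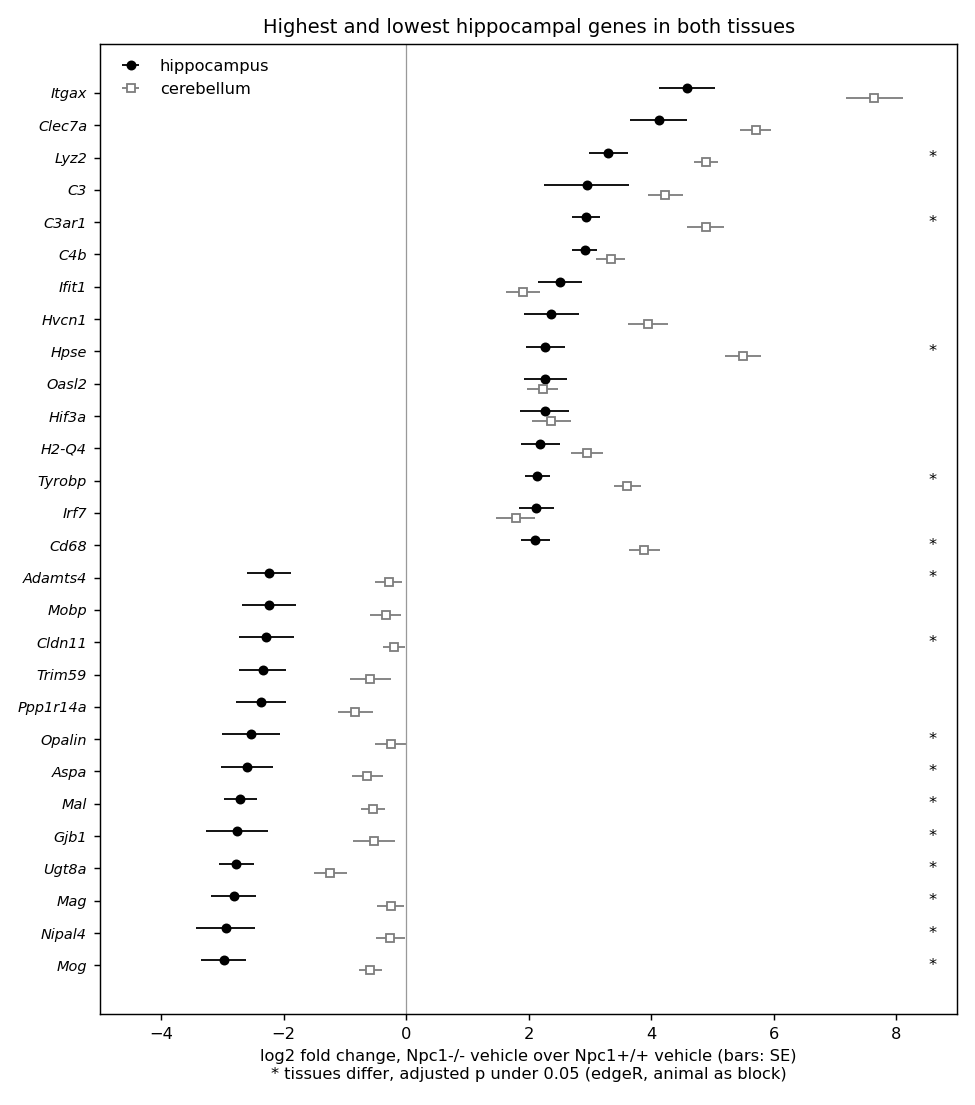
Log2 fold changes of Npc1-/- vehicle over Npc1+/+ vehicle, with SE bars, in hippocampus (filled circles) and cerebellum (open squares) for the highest and lowest hippocampal genes reported here; an asterisk marks genes whose effect differed between tissues. The lower genes shown lie between -2.98 and -2.23 in hippocampus and between -1.23 and -0.20 in cerebellum; they were chosen for their hippocampal values.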

How the data were processed

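Per the labels' protocols, RNA came from an RNeasy kit for lipid-rich tissue and was read with the Ion AmpliSeq mouse panel on an Ion S5 sequencer. Per the submitters' processing notes, the authors used FastQC 0.11.9, Trimmomatic 0.39, STAR 2.7.9a, GRCm39 and featureCounts 2.0.3. The deposited files hold raw counts of reads for each gene, not normalized. Per the file headers, GENCODE M34 was the annotation and no strand option was set, so reads of overlapping antisense genes are mixed. By the animal numbers in the labels the 24 libraries came from 12 mice, each giving cerebellum and hippocampus, so each hippocampal library is a separate mouse.

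The 12 hippocampal libraries were fitted with edgeR 4.0.16 (R 4.3.3): TMM scaling, a low-count filter (filterByExpr, 3 groups), sex as covariate, robust dispersions, the quasi-likelihood test and Benjamini-Hochberg adjustment over 12740 genes. The SE is the absolute log2 fold change over the square root of F. CPM use the TMM-scaled library size. The tissue difference was fitted over 24 libraries with a block for each animal and a term for sex within tissue. Between replicates the chi-square over its degrees of freedom was 7.48 to 46.6, so none was a recount of the same reads. It cannot tell apart a second library made from the same RNA. That the mice are separate rests on the animal numbers in the labels. PCR reads carry no molecular identifiers, so the intervals and floors given hold for counting error alone. Alternatives used limma 3.58.1, DESeq2 1.42.0, other scalings, filters, covariates and each library left out.

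Members, gene lists and the naming rule were chosen with earlier results of these data known. The rule named Npc1; of called genes averaging 5 CPM or more with separate groups, the 15 that changed most in each direction; the 12 higher and 12 lower genes of smallest p in no list; up to 6 called members of each list, or 2 as values where none passed; and the 10 called genes of smallest p for the tissue difference. Not all genes named by this rule are reported. The ion codes run over separate ranges in the 2 genotypes and, like age, cannot be told apart from genotype. The labels give ion code 124 to both libraries of Npc1-/- dipyridamole replicate 4, which enter the fits for spread and sex; one of these codes may be wrong.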

Additional observations from a re-analysis of the deposited data

Results flagged for a closer look

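Each group of 4 libraries was checked for 1 library far from the other 3, in 88 groups of values, and 5 stood apart; chance alone sets about 1 in 20 groups apart. Among Npc1-/- libraries, replicate 4 was the highest for Nipal4, at 3.11 CPM with the next at 1.18 CPM. Npc1-/- replicate 2, the shallowest library, was the lowest for Cd68, at 43.6 CPM with the next at 78.3 CPM, and for the summed level of reactive astrocyte genes, at 629.9 CPM with the next at 725 CPM. Among Npc1+/+ libraries, replicate 4 was the lowest for Ugt8a, at 52.2 CPM with the next at 64.4 CPM, and the highest for Cd68, at 23.4 CPM with the next at 16.3 CPM. None of these values crossed into the other group. For Nipal4, Cd68 and Ugt8a this was fixed beforehand, as they were chosen among genes with separate groups.

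The genotype effect differed between the tissues, by the test of the difference within animals, for 10 genes taken by smallest p among those called in hippocampus. All 10 had the lower log2 fold change in hippocampus. Their choice among called genes bears on this: over all genes tested 73 had the lower and 82 the higher value. The hippocampal minus cerebellar difference was -4.06 for Gpnmb, -3.15 for Hpse, -1.95 for Gfap and -1.50 for Laptm5, which rose in hippocampus. It was -2.54 for Mag, -2.32 for Mbp, -2.15 for Mal, -2.03 for Tspan2, -1.91 for Unc5b and -1.32 for Qdpr, which fell in hippocampus. The cause of these differences was not tested.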

How the results depend on the processing

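The log2 fold change of Npc1 stayed past the threshold in all 23 alternatives (-2.24 to -1.86). All of the 206 called genes that an alternative measured kept their direction there. The count of 206 was 490 with no sex covariate and 347 and 47 when the 2 groups were fitted alone without and with it, 51 with female mice only, 419 by DESeq2 and 368 with the GC slope as covariate. It was 208 by limma-voom, 205 with RLE factors, 192 with library totals, 233 with no filter, 177 with a stricter one and 184 with the choroid plexus score as covariate. Chosen after seeing the data, it was 308 with no sex covariate and the female Npc1-/- vehicle mouse left out, and 177 without Npc1-/- vehicle replicate 2 and dipyridamole replicate 4. Leaving out 1 library at a time gave 31 (Npc1-/- replicate 3) to 238 (Npc1-/- replicate 2), with 118 and 102 without Npc1+/+ replicates 2 and 3.

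Of the myelin proteins 16 fell, 7 with female mice only, and 6 (without Npc1-/- replicate 3) to 17 with 1 library left out. Of the disease-associated microglial genes 17 rose, 11 with female mice only, 9 with the 2 groups and sex, and 9 (without Npc1-/- replicate 3) to 19 with 1 library left out. The tissue difference held for 155 genes, 386 without the tissue by sex term, and 27 to 227 with 1 mouse left out. The replicate numbers did not pair the mice: same-numbered libraries correlated from -0.351 to 0.271 in their deviations, and 2 of 4 correlated best with their own number. With a replicate block 55 genes passed, among them 10 myelin proteins that fell and 10 disease-associated genes that rose. Of 103 named called genes 29 passed without Npc1-/- replicate 3 and 103 by DESeq2. Depth limits genes of few counts most, such as Cd22 and Atp6v0d2.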
